A study of Drosophila melanogaster with 3 samples.

Results

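Far intronic peaks are the places inside introns, more than 10 kb from every annotated transcription start, where GFP-tagged Grauzone was found on chromatin in fruit fly embryos. They were taken by position alone from the reproducible peak list, which is the same as the 9624 pooled peaks of highest signal. A peak was kept if its point source, the base the authors marked as most enriched, lay inside a gene, in no annotated exon, and more than 10000 bp from the nearest start. The rule kept 524 of 9624 peaks, or 5.44%. The data came from ChIP-seq, in which DNA pulled down with a protein is sequenced, in 1 group with 3 biological replicates of Drosophila melanogaster. The embryos came from a transgenic line with stable expression of grau joined at its C-terminal end to GFP, and an antibody against GFP pulled down the DNA. Male and female embryos were collected whole over 0 to 24 hours and pooled, so all cell types and embryonic stages are mixed, and the protein measured is the fusion. No control list was analysed here, so no value has a background measured in the same way beside it. The sequencing depth behind the peaks is unknown here.

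Grauzone belongs to the ZAD zinc finger proteins, which recognise DNA through arrays of zinc fingers. It is known as an activator of cortex (cort), a gene needed to complete meiosis in the egg. Introns are the parts of a gene that are transcribed and then spliced out. In Drosophila, long introns are a feature of many developmental regulators and neuronal genes, and they are known to hold enhancers, which act on promoters at a distance.

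The DNA at the point sources was rich in A and T. The lines below give the point source with 50 bases on either side for 7 far intronic peaks, with the host gene's name, and a window centred 500 bp to the right on the plus strand for the peaks in fz and gpp. The peaks in fz, gpp, SKIP and simj are among those with the highest signal, kek5 has the highest GC content of those shown and N is a further example, and baz was added after its sequence was seen because it holds the longest run of A and T of all 524 members. Sequences are the plus strand of the RefSeq Release 6 assembly (dm6), 5′ to 3′, and capitals mark the longest unbroken run of A and T in the window.
fz, chr3L:14304016-14304116: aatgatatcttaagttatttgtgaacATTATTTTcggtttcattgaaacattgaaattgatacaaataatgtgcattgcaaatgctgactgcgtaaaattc
fz, flank, chr3L:14304516-14304616: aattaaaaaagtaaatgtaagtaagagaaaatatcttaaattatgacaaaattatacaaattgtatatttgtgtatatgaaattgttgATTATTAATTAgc
gpp, chr3R:6424083-6424183: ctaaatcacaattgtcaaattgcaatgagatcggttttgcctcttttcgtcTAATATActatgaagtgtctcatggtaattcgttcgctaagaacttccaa
gpp, flank, chr3R:6424583-6424683: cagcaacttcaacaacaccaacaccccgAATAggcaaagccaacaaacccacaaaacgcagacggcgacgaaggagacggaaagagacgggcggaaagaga
SKIP, chr3R:22145945-22146045: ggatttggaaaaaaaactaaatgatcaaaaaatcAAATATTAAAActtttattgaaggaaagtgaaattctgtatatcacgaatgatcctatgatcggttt
simj, chr3L:10678717-10678817: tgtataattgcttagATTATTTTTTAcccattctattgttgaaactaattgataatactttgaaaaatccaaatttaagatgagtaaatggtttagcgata
kek5, chrX:19372301-19372401: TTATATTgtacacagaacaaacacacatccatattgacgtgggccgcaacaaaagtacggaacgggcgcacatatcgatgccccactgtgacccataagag
N, chrX:3162478-3162578: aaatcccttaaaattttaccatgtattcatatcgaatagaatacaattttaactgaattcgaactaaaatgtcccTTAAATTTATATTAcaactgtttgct
baz, chrX:17170548-17170648: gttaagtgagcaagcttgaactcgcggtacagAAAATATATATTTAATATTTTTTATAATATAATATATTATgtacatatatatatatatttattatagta

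These windows show how far the members differ. The point source in baz has 18.8% GC and a run of 40 bases of A and T, against 47.5% GC and a run of 7 bases in kek5. In gpp the point source has 35.6% GC, against 53.5% in its flank. The fz peak goes the other way, with 27.7% GC at the point source and 16.8% in the flank shown. The word TATAAA, counted on either strand, is in the windows of N and baz and in none of the other 5 point sources shown.

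Across all members, the GC content of this window had a median of 29.7%, with its middle part from 25.7% to 35.6% (the interquartile range) and extremes of 14.9% and 69.3%. To give a spread, the same rule was applied to the 9624 strongest peaks of each replicate. At the point source, far intronic peaks had 32.5%, 32.5% and 30.4% GC in replicates 1, 2 and 3, a mean of 31.8% ± 1.19 (SD, n = 3). In the flanks, 500 bp to either side, they had 42.0% ± 0.384 (SD, n = 3). The point source was lower than the flank in all 3 replicates, by 10.2 ± 1.55 percentage points (exact sign-flip permutation test over 3 replicates, two-sided, p = 0.25). That p is the smallest 3 replicates allow, so no such test here could pass 0.05, with or without adjustment. The dip was shared with other peaks. In introns 2 to 10 kb from a start the point source fell by 9.32 ± 1.53 percentage points against its flank, and in all peaks other than the far intronic ones it fell by 9.75 ± 1.77 (SD, n = 3 each).

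Beside the dip, GC content was raised around far intronic peaks. GC content 200 bp from the point source was 44.3% ± 0.447, higher than the 40.0% ± 0.141 at 1000 bp, a shoulder of 4.24 ± 0.306 percentage points. In introns 2 to 10 kb from a start the shoulder was 3.15 ± 0.264, and in all other peaks it was -0.15 ± 0.229 percentage points (SD, n = 3 each). In all other peaks GC content was raised farther out. In the reproducible list it was 44.1% and 43.9% at 350 bp to the left and right, against 42.5% and 42.4% at 1000 bp. Measured as 200 bp against 1000 bp, the far intronic shoulder was larger in 3 of 3 replicates in both comparisons. It exceeded that of introns 2 to 10 kb by 1.1 ± 0.0617 percentage points and that of all other peaks by 4.39 ± 0.123 (exact sign-flip permutation test, p = 0.25 for each). Introns as such had 40.7% GC beyond 10 kb and 40.2% at 2 to 10 kb. The 200 bp and 1000 bp positions were chosen after the profile was seen, and the differences in shoulder hold for these positions only.

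**Figure D1:**
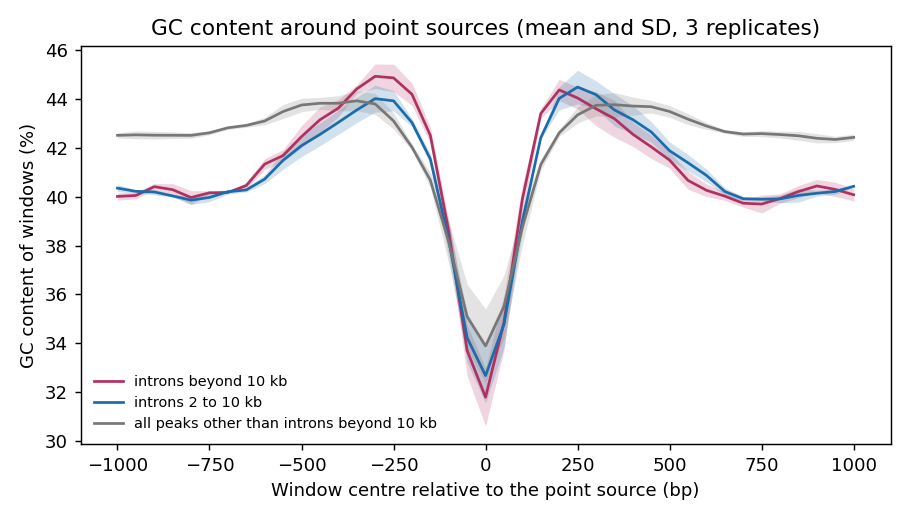
GC content (%) of windows, each reaching 50 bases to either side of its centre, against the distance of the window's centre from the point source (bp). Lines are means and bands SDs over 3 replicates, for introns beyond 10 kb, introns 2 to 10 kb and all peaks other than introns beyond 10 kb. All 3 lines dip at the point source, and the far intronic line stands 4.24 percentage points higher at 200 bp than at 1000 bp.

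Most AT-rich words counted were more frequent at the point sources than in the flanks. The word TATAAA, the core of the TATA box, was found on either strand in 26.7% ± 1.07 of far intronic point sources, against 12.3% ± 0.906 of their flanks (SD, n = 3 each). It was common in other classes too, with 23.8% ± 1.17 in introns 2 to 10 kb from a start and 22% ± 1.79 in promoter peaks, those within 500 bp of a start. The longest run of A and T averaged 11.1 ± 0.182 bases at far intronic point sources and 8.79 ± 0.153 in their flanks, against 10.9 ± 0.387 and 8.14 ± 0.0253 in all other peaks. The 5 words of 6 letters most in excess over the flanks were picked on the other 9100 peaks. All of them consist of A and T. The first, AAATAT, was in 36.0% ± 1.71 of far intronic windows and 15.3% ± 0.594 of their flanks (SD, n = 3 each). In the reproducible list it was in 37.4% of far intronic windows and 34.3% of those of all other peaks. The shares of TTAAAA (31.7% and 32.2%), AAAATA (35.9% and 36.5%), ATTTTA (31.9% and 29.9%) and TAAATA (32.3% and 30%) were also close. The run AAAAAAAA went the other way, with 8.17% ± 1.14 at far intronic point sources and 9.96% ± 0.991 in their flanks, a difference of -1.79 ± 1.4 percentage points that turned to 2.68 for peaks beyond 20 kb. Words of 6, 7 and 8 letters were all looked at before this length was kept, and a search of strong against weaker peaks also returned AT-rich words.

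Of the motifs known from fly promoters, DRE and motif 1 were rarer at far intronic peaks than at promoter peaks, and similarly rare in introns nearer to a start. The DNA replication element DRE (TATCGATA) was in 0.06% ± 0.104 of far intronic windows, against 0.183% ± 0.0689 in introns 2 to 10 kb from a start and 3.65% ± 0.545 of promoter windows. Motif 1, bound by M1BP (GGTCACAC), was in 0.403% ± 0.228 of far intronic windows, against 0.345% ± 0.108 in introns 2 to 10 kb and 2.27% ± 0.796 of promoter windows (SD, n = 3 each). The 2 words of repeats, GAGAG and CACACA, were less frequent at far intronic point sources than in their flanks. GAGAG was in 7.33% ± 1.69 against 11.4% ± 1.19, and CACACA in 6.15% ± 0.617 against 11.7% ± 0.562. The E-box CAGCTG was in 2.11% ± 0.119 of point sources and 4.91% ± 0.129 of flanks. These 3 differences had the same sign in introns 2 to 10 kb from a start. In all, 11 motifs were counted on both strands; a match says only that the letters are in the window.

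Far intronic peaks were found again in the replicates. A replicate peak counted as a match if its point source lay within 100 bp. Of the 524 members, 95.4% matched in the list of replicate 1, 97.3% in that of replicate 2 and 97.7% in that of replicate 3, each list holding 30000 peaks. The matched point sources lay a median of 10, 13 and 9 bp away. In all 3 lists 478 members matched, or 91.2% (95% Wilson interval 88.5% to 93.4%, counting error only), against 91.5% of peaks in introns 2 to 10 kb from a start and 88.8% of all other reproducible peaks. A further 42 members matched in 2 lists, 4 in 1 list and 0 in none. Because the reproducible list was drawn from all 3 replicates, these matches are a description and not an independent test.

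The signal of far intronic peaks was lower than that of the rest. Signal is the authors' own value per peak, on a scale not stated, and is compared only within a list. Members had a median signal of 377.5, with a range of 201.7 to 11283.5, against a median of 443.5 for all other peaks. Within the replicates' own strongest peaks, the median signal of far intronic peaks over that of all other peaks was 0.924, 0.912 and 0.784 in replicates 1, 2 and 3, a mean of 0.873 ± 0.0776 (SD, n = 3). It was below 1 in 3 of 3 replicates (exact sign-flip permutation test, p = 0.25). Over introns 2 to 10 kb from a start the ratio was 0.908 ± 0.0377. The lower signal was shared with intergenic peaks more than 5 kb from a start. Over the median of all strongest peaks, their median was 0.849 ± 0.0811, against 0.881 ± 0.0745 for far intronic peaks (SD, n = 3 each). Members were also narrower, with a median width of 305 bp against 366 bp for all other peaks. Intergenic peaks more than 5 kb from a start had 292 bp in the same list. Of the 1000 strongest reproducible peaks, 18 were far intronic, or 1.8%, against 5.44% of the whole list.

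The peak with the highest signal among the members lay in the first intron of fz (frizzled, a Wnt receptor that also sets planar cell polarity), at chr3L:14303697-14304414. Its signal was 11283.5 and its rank 20 of 9624. Scaled to the median of the 9624 strongest peaks of each replicate, it had 32.9, 24.6 and 15.5 in replicates 1, 2 and 3. Next was a peak in the first intron of gpp (grappa, which methylates histone H3 on lysine), at chr3R:6423749-6424761, with scaled signals of 28.2, 20 and 16.4. Replicate 3 was the lowest at both places, and the values of both peaks overlap. The third lay in Hr4, a nuclear receptor of the ecdysone response, at chrX:1963608-1964336, with 12.7, 12.1 and 10.4. It lay below the first pair in every replicate.

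The next peaks followed without a clear step. The peak in SKIP had scaled signals of 13, 9.6 and 7.01 in replicates 1, 2 and 3, above Hr4 in replicate 1 and below it in the other two, and that in scrib, a cell polarity gene, had 8.67, 7.37 and 6.22. The peak in simj had 5.76, 5.95 and 7.28, and that in mamo, a zinc finger gene needed in the germline, had 3.79, 4.51 and 7.51. In simj and mamo replicate 3 was the highest, the reverse of fz and gpp. The peak in mamo was also the farthest from a start of the 20 strongest, at 42.3 kb. Others among the 20 lay in Sema1a (an axon guidance ligand), dally (a heparan sulfate proteoglycan that shapes Wnt and BMP gradients), N (the Notch receptor), baz (a polarity protein), Efa6, px, kek5, Dhc36C, Snoo and, with 4 peaks, sbb. All 20 matched in all 3 lists. Across members matched in both of a pair of replicates, Spearman's rho of the scaled signal was 0.87 for replicates 1 and 2, 0.76 for 1 and 3 and 0.79 for 2 and 3, over 489, 489 and 498 peaks of shared libraries.

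**Figure D2:**
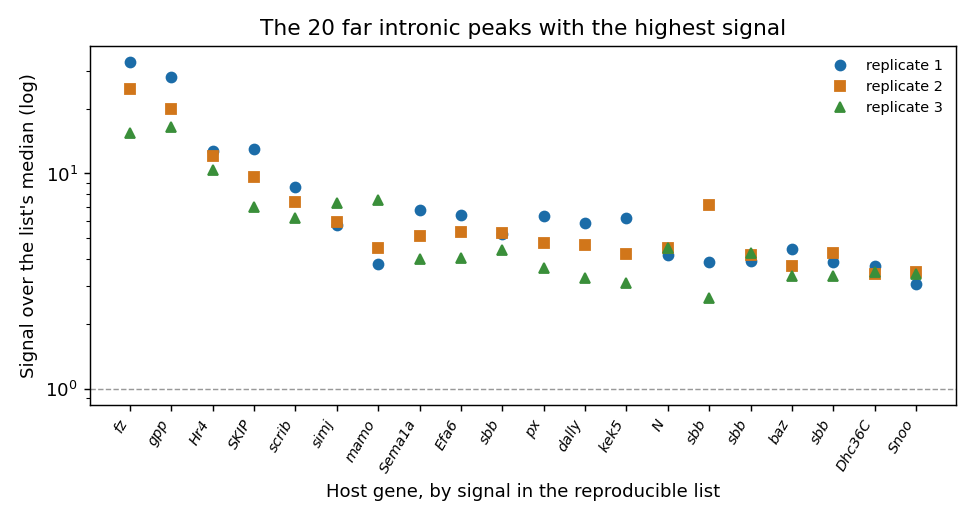
Signal of the 20 far intronic peaks with the highest signal, divided by the median of each replicate's list (log axis), by host gene in the order of the reproducible list. Each point is 1 replicate, and the dashed line marks that median. The peaks in fz and gpp stand highest, at 15.5 or more in every replicate, and all points lie above 1.

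The density of peaks in introns fell with distance from the nearest start. Per Mb of intron, the replicates' strongest peaks numbered 160 ± 5.59 at 0.5 to 1 kb, 113 ± 2.87 at 1 to 2 kb, 75.3 ± 2.25 at 2 to 5 kb, 61.2 ± 4.78 at 5 to 10 kb, 44.3 ± 3.99 at 10 to 20 kb and 14.5 ± 1.63 beyond 20 kb (SD, n = 3 each). Far introns as a whole had 29.1 ± 2.72 peaks per Mb, against 68.9 ± 3.33 in introns 2 to 10 kb from a start. The ratio was 0.404, 0.421 and 0.442 in replicates 1, 2 and 3, a mean of 0.422 ± 0.019 (exact sign-flip permutation test, p = 0.25).

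The gap was smaller away from the centromeres. The arm ends near the centromeres and chromosome 4 held 6.22 of the 17.37 Mb of far intron and 0 of the 524 members, and 73 genes with far intron lay at least in part there. The limits of the arm ends were set after very long introns near the centromeres were seen to hold no peak. The 0 members there, and the rise in density on leaving these regions out, are therefore partly built in. With these regions left out, a choice made after the data were seen, far introns had 45.3 ± 4.1 peaks per Mb. Introns at 2 to 10 kb then had 73.0 ± 3.56, a ratio of 0.62 ± 0.0258. Beyond 20 kb the density was then 37.0 ± 4.01 per Mb, and at 10 to 20 kb it was 49.0 ± 4.3. Restricted to genes that hold at least 1000 bp of far intron, the ratio was 0.72 ± 0.0174 (SD, n = 3 each). It was below 1 in all 3 replicates in each case.

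Intergenic DNA more than 10 kb from a start gave a second yardstick. Far introns had 29.1 ± 2.72 peaks per Mb, against 13.8 ± 2.07 in such intergenic DNA, a ratio of 2.12 ± 0.131. With the arm ends and chromosome 4 left out the values were 45.3 ± 4.1 and 36.9 ± 5.33, a ratio of 1.23 ± 0.0734 (SD, n = 3 each). The ratio was above 1 in 3 of 3 replicates both ways.

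**Figure D3:**
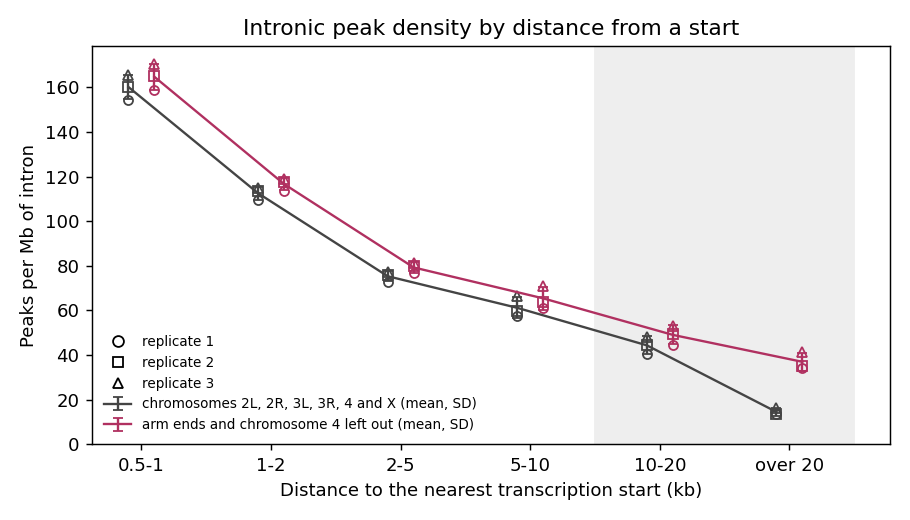
Peaks per Mb of intron against distance to the nearest transcription start (kb), in the 9624 strongest peaks of each replicate. Open symbols are replicates, lines and bars are means and SDs, and the shaded bins lie beyond 10 kb. Density falls across the 6 bins, and beyond 20 kb it is 14.5 per Mb over whole chromosomes and 37.0 per Mb with arm ends and chromosome 4 left out.

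Far intronic peaks per Mb of far intron differed between whole chromosome arms, but not away from the centromeres beyond the spread of the replicates. Chromosome arm 2L had 41.7 ± 6.71 and X had 40.9 ± 4.23, against 25.5 ± 2.42 on 3R, 25.1 ± 1.77 on 3L and 20.6 ± 2.15 on 2R (SD, n = 3 each). The lowest replicate of 2L, at 35.0, lay above the highest of 3R, 3L and 2R, at 27.1. Chromosome 4 had 0 members in 0.108 Mb. This order did not hold with the arm ends left out, where 2L had 45.0 ± 7.25, X 42.8 ± 4.07, 3R 48.9 ± 4.59, 3L 43.2 ± 3.04 and 2R 46.0 ± 4.81 (SD, n = 3 each). The replicates of all 5 arms then overlapped.

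The rule fixed the members' least distance from a start, and within it the median distance was 14.3 kb and the greatest 50.2 kb, with 133 members more than 20 kb away. The smallest intron around a member had a median length of 23.9 kb, and the nearest splice site was a median of 6.91 kb away. Of the 524 members, 516 lay in a protein-coding gene, 8 in noncoding genes only and 29 in more than 1 gene. In 221, or 42.2%, the intron was the first of some transcript. The nearest start belonged to the host gene for 287 members, or 54.8%, and to another gene for 237. Another reproducible peak lay within 5 kb of 62.8% of the members, against 78.8% of peaks in introns 2 to 10 kb from a start.

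The limit of 10 kb divides a continuous range. Just inside it were the peaks in Efa6, at 10001 bp with a signal of 2429.6, ush, at 10015 bp with 628.8, and sdt, at 10019 bp with 380.1. Just outside were those in hbs, at 9995 bp with 283.4, nmo, at 9979 bp with 682.6, and MESR3, at 9976 bp with 639.0.

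Members were spread unevenly over genes, whose far introns also differed in length. Of 714 protein-coding genes with at least 1000 bp of far intron, 235 held a member, or 32.9%. Of these, 115 held 1 member, 95 held 2 to 4 and 25 held 5 or more. The 10 protein-coding genes with the most members held 19.3% of the 524. They were picked by these counts, and their far introns ran from 22.6 kb in rdx to 152.7 kb in kirre. Per Mb of far intron they held from 59.4 members in pum to 398 in rdx, with 131 in kirre. All genes held 30.4 per Mb, and 46.9 with the arm ends and chromosome 4 left out. The part of length in these counts was not tested. Among the strongest peaks of replicates 1, 2 and 3, 28.6%, 32.5% and 35.9% of the 714 genes held a far intronic peak.

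The gene with the most members was kirre (kin of irre), an adhesion protein needed for the fusion of muscle cells. It held 20 members, against 15, 15 and 16 among the strongest peaks of replicates 1, 2 and 3. Its members spread over 284 kb of a gene of 394.1 kb, and 14 of them lay between 265.6 and 313.1 kb from its 5′ end. Its signals ranged from 201.7 to 1405.7, with a median of 341.6.

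Snoo (Sno oncogene, a regulator of TGF-beta signalling) followed with 14 members, and 13, 14 and 13 in the replicates. Its signals were higher, with a median of 614.5 and a maximum of 1534.5. The homeobox gene hth (homothorax, a partner of Hox proteins) held 13 members, and 12, 11 and 12 in the replicates, over 103 kb. The transcriptional regulator sbb (scribbler) held 10 members, and 10, 12 and 11 in the replicates, within 19.4 kb. The median signal in sbb, 930.1, was the highest of the 10 genes. In these 3 genes every member matched in all 3 replicate lists, and in kirre 19 of 20 did.

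Of the remaining 6 genes, CG42663 varied most between replicates. SKIP held 9 members and rdx (roadkill, a substrate adaptor that acts in Hedgehog signalling) held 9, against 6 to 8 and 6 to 7 in the replicates. CG42663 held 8 members but 7, 3 and 7 in the replicates, so its count in replicate 2 stood apart. The translational repressor pum (pumilio), the methylcytosine dioxygenase homologue Tet and fz held 6 members each, with 5, 5 and 5, then 6, 7 and 5, then 5, 4 and 6 in replicates 1, 2 and 3. Other protein-coding genes with 6 members, such as ed, heca and eIF5B, had less far intron and fell behind them in the order. The noncoding gene lncRNA:CR32773 also held 6, in 98.5 kb of far intron, but only protein-coding genes were ordered. In fz the strongest peak stood alone, with a signal of 11283.5 against a median of 281.2 for its members.

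**Figure D4:**
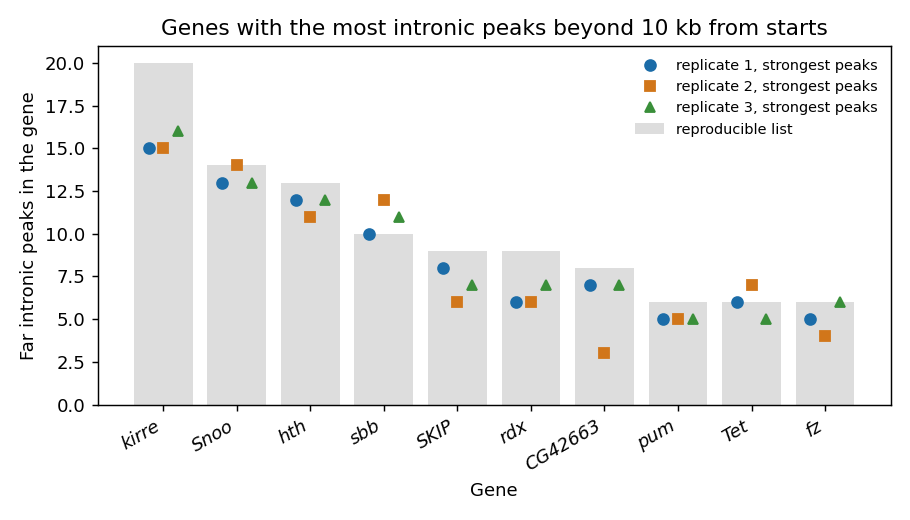
Far intronic peaks in each of the 10 protein-coding genes with the most. Bars are the reproducible list and points are the 9624 strongest peaks of each replicate. kirre holds 20 in the reproducible list and 15 to 16 in the replicates, and CG42663 drops to 3 in replicate 2.

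**Figure D5:**
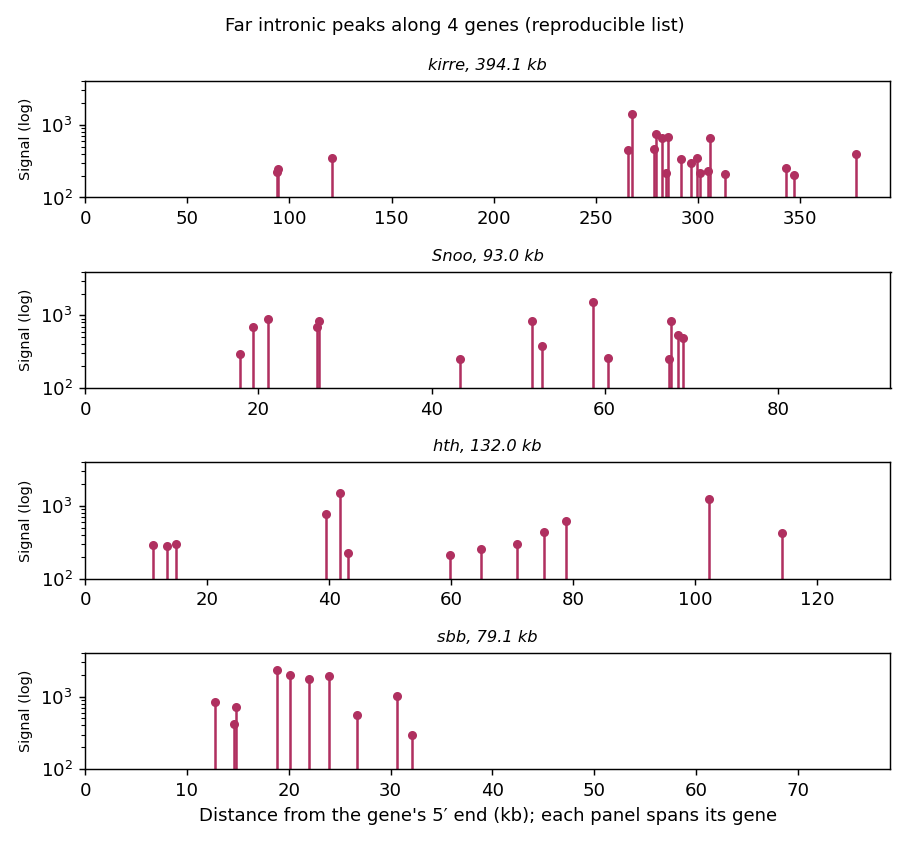
Signal of each far intronic peak of the reproducible list (log axis) against distance from the 5′ end of its gene (kb) in kirre, Snoo, hth and sbb; stems only mark position, and each panel spans its gene. In sbb the 10 peaks lie within 19.4 kb, and in kirre 14 of 20 lie between 265.6 and 313.1 kb.

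Long far introns did not always hold a reproducible peak. With the arm ends and chromosome 4 left out, the gene with the most far intron and no member was bru3, a homologue of the RNA-binding protein Bruno, with 166.0 kb. It held 0 far intronic peaks among the strongest peaks of each replicate, the only replicate peaks counted per gene. AstA-R1 (72.1 kb), a receptor of the peptide allatostatin A, CadN (64.9 kb), the neuronal cadherin, and CG46244 (63.4 kb) also had 0 in every replicate. CG34354 (64.7 kb) had 0 in the reproducible list and 1 among the strongest peaks of replicate 3.

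Gene lists, which need not cover the whole class they are named for, were set beside the 32.9% of all 714 genes. Of the lists, the signalling genes of the Notch, EGFR, Wnt, Hedgehog, TGF-beta, FGF and insulin pathways held members most often, in 13 of 19 genes with far intron, or 68.4%. The highest were in fz, dally and N. Others lay in fz2 (a second Wnt receptor), nkd (a Wnt feedback inhibitor), sog (a BMP antagonist), vn (an EGFR ligand), bnl, pyr and ths (FGF ligands) and InR (the insulin receptor). The 13 genes also counted Pvf3 and tara, whose place in the named pathways was not checked. These genes had 27 members in 0.232 Mb, and 108 ± 12.9 per Mb in the replicates, against 29.3 ± 2.63 per Mb for all genes. With the arm ends left out the values were 110 ± 13.2 and 45.2 ± 4.01 (SD, n = 3 each). The median far intron of these genes was 9.34 kb, against 10.9 kb for all genes. In replicates 1, 2 and 3, 13, 12 and 13 of 18 signalling genes outside the arm ends held a far intronic peak.

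Ion channel genes were at the other end. Of 20 voltage-gated and ligand-gated channel genes with far intron, 4 held a member, or 20%, although their median far intron was longer, at 24.3 kb. They had 11.0 ± 4.85 peaks per Mb in the replicates (SD, n = 3). The members lay in nAChRalpha6 and nAChRalpha3 (subunits of acetylcholine receptors), Elk (a potassium channel) and Ca-alpha1T (a calcium channel). The highest, in nAChRalpha6, had a signal of 439.1 and rank 4814.

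The other lists lay between in their share of genes with a member, but not in the same order of density; all genes had 29.3 ± 2.63 peaks per Mb (SD, n = 3 each). Ecdysone response genes and nuclear receptors held members in 5 of 11 genes and had 77.1 ± 5.93 peaks per Mb in the replicates, with the highest in Hr4 (5401.8), ftz-f1 (979.5) and Eip93F (689.1). Homeobox and other developmental transcription factors held members in 11 of 27 and had 53.5 ± 6.08 per Mb, among them mamo, hth and ct. That list was only part of its class. The homeobox genes inv (3 members), NK7.1 (2) and pb (1), among others, were not counted in it. RNA-binding regulators held members in 7 of 15, with the highest in msi (1508.7), pum (803.7) and Rbfox1 (672.2), and had 19.4 ± 4.04 per Mb. Axon guidance and adhesion genes held members in 19 of 53 and had 36.6 ± 5.98 per Mb, among them Sema1a, kirre and NetA. Muscle, cytoskeleton and polarity genes held members in 6 of 18, or 33.3%, and had 82.4 per Mb in every replicate, with the highest in scrib, baz and pyd. Transmitter receptor and cAMP genes held members in 6 of 20 and had 34.5 ± 4.27 per Mb, with the highest in rut, Pka-C3 and Pde11. With the arm ends and chromosome 4 left out, all genes had 45.2 ± 4.01 per Mb. Axon guidance and adhesion genes (37.8 ± 6.17) and transmitter receptor and cAMP genes (34.5 ± 4.27) then had lower means than all genes. RNA-binding regulators (19.4 ± 4.04) were lower both ways. Ecdysone response (77.1 ± 5.93), homeobox (54 ± 6.13) and muscle, cytoskeleton and polarity genes (90.6) were higher both ways (SD, n = 3 each). A gene with a longer far intron has more room for a peak, and the part of length in these shares was not tested.

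Genes with a far intronic peak more often had a peak at a promoter as well. Of the 714 genes, 39.1% had a reproducible peak within 500 bp of a start. In replicates 1, 2 and 3 the share was 60.3%, 58.6% and 42.2% of genes with a far intronic peak, against 31.4%, 31.5% and 26.2% of genes without one. The difference was 24.0 ± 7.0 percentage points (SD, n = 3; exact sign-flip permutation test, p = 0.25). With the arm ends and chromosome 4 left out it was 20.6 ± 5.95. Genes with a far intronic peak also had more far intron, with a median of 17.3 ± 0.557 kb against 7.11 ± 0.463 kb, whose part in the difference was not tested.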

How the data were processed

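Peak lists from ChIP-seq of 1 group with 3 biological replicates were used. The authors deposited for each peak a signal value, whose scale is not stated, a −log10 q-value and the offset of the point source; coordinates use dm6, per the labels. The IDR threshold, peak caller and aligner are not given in the sources used here. Each replicate list and the pooled list held 30000 peaks. The reproducible list is the same set as the 9624 pooled peaks of highest signal and has no spread of its own, so the 9624 strongest peaks of each replicate gave each mean ± SD. The −log10 q-value as deposited was used only to count matched peaks and is not reported. Depth is unknown.

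Introns and 23358 starts came from Ensembl release 115 without pseudogenes and transposable elements, and sequence from RefSeq. Chromosome Y was left out of intron lengths. 0 peaks fell outside the reference. Windows reached 50 bases to either side, and flanks were centred 500 bp away on both sides. Replicates were compared by exact sign-flip permutation, two-sided. The 95% interval is a Wilson interval.

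The members, lists, motifs and named genes were chosen with earlier results of these data known. Named genes are the hosts of the 20 highest members and the 10 protein-coding genes with the most members (ties ordered by length of far intron). They are also up to 3 genes per list with the highest member, and the hosts of the 3 peaks nearest each side of 10 kb. Other genes named were picked after their values were seen, as were the 5 example words, the A and T runs, the distance bins, the host promoter and intergenic comparisons and the arm ends left out (round limits on 5 arms). Alternatives varied the start distance, the starts used, the number of peaks, the window, the match distance and the replicates. Python 3.11.15, numpy 2.4.6, scipy 1.17.1, pandas 2.3.3 and matplotlib 3.10.9 were used, and the functions were tested on simulated data.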

Additional observations from a re-analysis of the deposited data

Results flagged for a closer look

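The pooled list, which the comparisons above do not use, held 2227 far intronic peaks among 30000. Of these, 1703 were not in the reproducible list, and all had a lower signal (200.8 at most) than the lowest peak of that list (201.4). A peak lay within 100 bp in all 3 replicate lists for 416 of the 1703, or 24.4%, and in none of them for 191. No control list was analysed here, so this signal was not set against a background.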

How the results depend on the processing

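Of 150 alternatives, 131 kept the direction or size of their result, 11 moved it and 8 reversed it. Tests over 3 replicates cannot pass 0.05, so their p-values say nothing about stability.

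The share of peaks that were far intronic, 5.26%, was 12.3% with a start distance of 5000 bp, 1.33% with 20000 bp, 6.56% with protein-coding starts only, 4.45% in the stronger part of each list (its upper 50%) and 7.31% in all 30000 peaks. Genes with a member, 235, numbered 486 at 5000 bp, 63 at 20000 bp and 128 in the stronger part. Members matched in all 3 lists, 91.2%, were 72.7% within 50 bp and 93.9% within 200 bp. The cause of these shifts was not tested.

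Leaving out 1 replicate at a time gave ranges of 5% to 5.49% for the share, 0.413 to 0.432 for the density ratio, 0.848 to 0.918 for the signal ratio, -10.7 to -9.31 percentage points for GC, 93.3% to 95.0% for members matched in both remaining lists and 216 to 226 genes. It gave 2.07 to 2.2 for the density ratio to intergenic DNA and 21.5 to 28 percentage points for promoter peaks, 2 results added after seeing the data. The density ratio to introns 2 to 10 kb was 0.21 to 0.551 over the planned settings, and 0.62 and 0.72 in those added after seeing the data. The 0.551 came from a start distance of 5000 bp, where the nearer introns were those at 2 to 5 kb.

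Of the motif differences of point source minus flank, 5 reversed under some setting. Zelda (0.0455 percentage points) was -0.279 at 5000 bp, -0.12 with protein-coding starts, -0.546 in the stronger part and -0.0399 to 0.158 with 1 replicate left out, the lowest without replicate 1. DRE, with a main difference of -0.103 ± 0.1, was 0.0442 at 5000 bp. GATA (0.607 ± 0.464) was -0.8 and the forkhead core (0.709 ± 1.32) was -0.625 in the stronger part. The A tract (-1.79 ± 1.4) was 2.68 at 20000 bp (SD, n = 3 for each main difference). The cause was not tested.

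No paired analysis was possible because the labels give 1 group, so no groups share replicate numbers; classes of peaks were compared within each replicate.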
